A study of Mus musculus with 3 samples.

Results

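The genes described here are 50 regulators of the cell cycle, of DNA replication and of growth arrest, picked by gene symbol from the 55536 annotated genes of the tables. The rule reads the symbol alone and uses no measured value, but the members were chosen with earlier results of these data known. All 50 were found once each. By role, 12 act in DNA replication and nucleotide supply, 13 at the passage from G1 into S phase, 12 in G2 and mitosis and 13 in arrest and the p53 pathway. The RNA came from the cytosolic fraction of primary macrophages that were grown from the marrow of C57BL/6J mice. Lipid A, the moiety of endotoxin recognised by the receptor TLR4, was given at 100 ng/ml for 12 h, removed for 12 h, and given again at 100 ng/ml for 90 min. Total RNA depleted of ribosomal RNA was sequenced in 3 libraries, numbered as biological replicates 1 to 3, which form 1 group. No sex or age was collected, all 3 libraries carry 1 donor record, and cells without Lipid A were not analysed here. The values are therefore levels in twice-exposed cells, and their spread and p-values measure only the differences between these samples.

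A cell enters S phase when cyclin D and cyclin E kinases phosphorylate the retinoblastoma proteins and free the E2F factors, which turn on genes for the replication machinery. Genes for mitosis are switched on later, in G2, and inhibitors such as p21 stop the kinases when p53 or other signals call for arrest. Macrophages grown from marrow divide in the growth factor M-CSF and are known to leave the cycle when lipopolysaccharide reaches TLR4, with D-type cyclins and p21 among the genes studied in that setting.

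Gene levels are given in TPM, a length-corrected abundance that can be compared between genes. Detection required at least 1 TPM in each of the 3 libraries. Depth was 40730514 expected counts in replicate 1, 70484996 in replicate 2 and 49726063 in replicate 3. All 12 macrophage markers were detected, with summed levels of 8138 to 8978 TPM, among them Lyz2 at 3262 ± 426 TPM (SD, n = 3). No marker of myeloid progenitors (0 of 8), erythroid cells (0 of 8), lymphocytes (0 of 10), stroma (0 of 8) or mast cells (0 of 6) was detected. The neutrophil list gave 3 of 10, namely S100a9, S100a8 and Mmp8, and its defining genes Ly6g and Retnlg had 0 counts. In bulk RNA, fewer cells in cycle and less RNA per cycling cell cannot be told apart.

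Of the 50 genes, 36 (72%) were detected, against 16.7% of all annotated genes and 40.1% of protein-coding genes. The 4 roles differed in this count. All 13 arrest genes, 10 of 12 replication genes and 10 of 13 G1/S genes were detected, but only 3 of 12 mitosis genes. A further 4 members reached 1 TPM in some libraries, and 10 stayed below it in every library. The mitosis count depends on the scale, because non-coding RNAs take much of the TPM total. Rescaled so that nuclear protein-coding genes alone share the total, 46 of 50 members and 9 of 12 mitosis genes reached a value of 1 in all libraries, against 45.8% of nuclear protein-coding genes. Mean levels spanned 1119.7-fold, between 216.5 TPM for Cdkn1a and 0.193 TPM for Plk1.

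**Figure D1:**
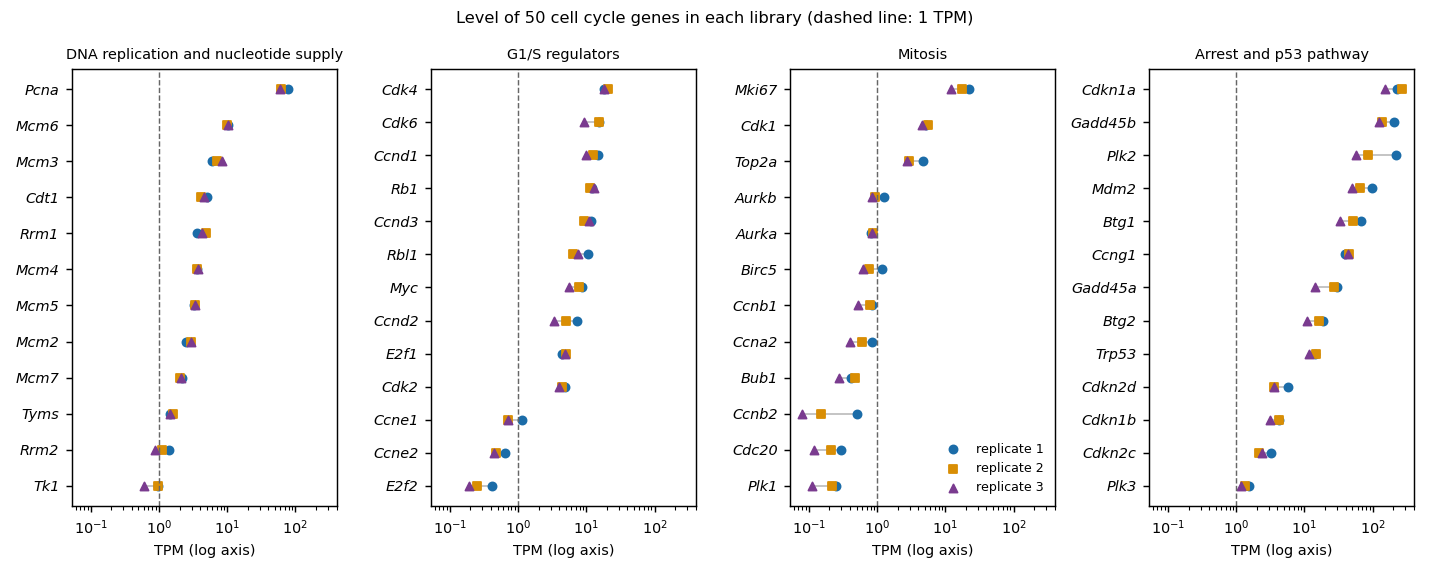
TPM (log axis) of each of the 50 genes in each library, 1 row per gene in 4 role panels, with 1 marker shape per replicate and a dashed line at 1 TPM. All 13 arrest genes lie right of the line in every library, as do 10 replication genes and 10 G1/S genes, while 3 mitosis genes do.

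The order of the role medians was the same in each library. The median log2(TPM + 1) of the arrest genes was 4.97, 4.79 and 3.92 in replicates 1, 2 and 3, that of the G1/S genes 3.28, 2.91 and 2.72, that of the replication genes 2.14, 2.17 and 2.19, and that of the mitosis genes 0.88, 0.82 and 0.65. For all genes that passed the count filter described further on, the medians were 2.58, 2.57 and 2.48. The arrest and G1/S medians thus lay above this level in all 3 libraries, and the replication and mitosis medians below it. The median of replication genes exceeded that of mitosis genes within each library by 1.26, 1.34 and 1.54 on the log2 scale (mean 1.38 ± 0.14, SD, n = 3). The arrest median exceeded the replication median by 2.40 ± 0.59 and the mitosis median by 3.78 ± 0.44. Each difference had 1 sign in 3 of 3 libraries and was larger than its SD. An exact two-sided sign-flip test over 3 libraries cannot go below p = 0.25, so no p is given. Restricted to detected genes, the replication minus mitosis difference turned to -0.33 ± 0.18 with 10 replication genes and 3 mitosis genes left.

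**Figure D2:**
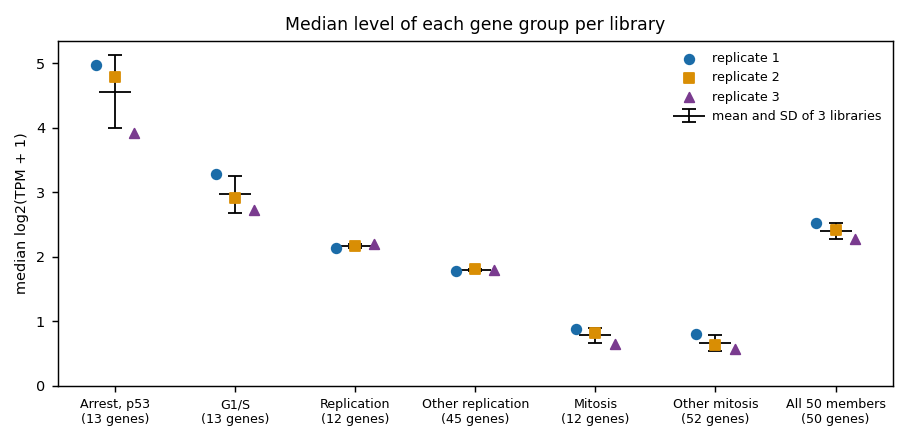
Median log2(TPM + 1) of each gene group in each library (coloured markers), with the mean and SD over the 3 libraries in black and the number of genes under each name. The arrest medians lie between 3.92 and 4.97, the replication medians between 2.14 and 2.19 and the mitosis medians between 0.65 and 0.88, with no overlap between these groups. The other arrest genes (1.70 ± 0.03) and other p53 targets (2.30 ± 0.15), described in the text, are not drawn.

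Other genes of the same pathways, from lists that share no gene with the members, repeated the low place of mitosis genes. They did not repeat the place of the arrest median above that of all genes past the count filter. Of 45 other replication genes 35 were detected, with Rfc2 and Rfc1, subunits of the clamp loader, and Rpa1, which coats single-stranded DNA, at the top (22.4 ± 3.68, 12.8 ± 0.889 and 10.3 ± 0.847 TPM). The lowest of them were Cdc7, a kinase that fires origins, at 0.220 TPM and Orc1, a subunit of the origin recognition complex, at 0.197 TPM. Of 52 other mitosis genes 16 were detected. Pttg1, the separase inhibitor securin, led them at 36.8 ± 8.35 TPM, followed by the checkpoint protein gene Bub3 at 10.6 ± 0.765 TPM, whereas Cdc25c, a phosphatase that activates CDK1, was at 0.0433 TPM. Of 25 other p53 targets 19 were detected, with Bax, a pore-former of apoptosis, at 44.1 ± 4.19 TPM. Of 39 other arrest and growth-control genes 28 were detected, with Max, the partner of MYC, at 49.6 ± 5.75 TPM. Of 28 other cyclins and cyclin-dependent kinases 23 were detected, and Ccna1 and Ccnb3, cyclins of the germ line, had 0 counts. The median log2(TPM + 1) averaged 2.30 ± 0.15 over the other p53 targets, 1.70 ± 0.03 over the other arrest genes, 1.80 ± 0.02 over the other replication genes and 0.66 ± 0.12 over the other mitosis genes. The lead of the arrest members over the replication members was therefore not seen between the other arrest and other replication genes. The other p53 targets did lie above the other replication genes in each library, at 2.43, 2.33 and 2.14 against 1.78, 1.81 and 1.79. They stayed below all genes past the count filter (2.58, 2.57 and 2.48).

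Among replication genes, Pcna (chromosome 2, 132249162 to 132253314, minus strand, build mm10, GENCODE M21), which encodes the sliding clamp of DNA polymerases, stood apart with 76.9, 62.3 and 58.8 TPM. Its level was 6.44 times that of the next gene, Mcm6, with a log2 ratio of 2.69 ± 0.21 (SD, n = 3). The 6 Mcm genes encode the subunits of the MCM2-7 helicase, which assembles as a ring with 1 copy of each. Their mean levels nevertheless ran over a 4.85-fold range, between 10.2 TPM for Mcm6 and 2.10 TPM for Mcm7. Mcm6 (chromosome 1, 128331590 to 128359664, minus strand) had 10.15, 10.02 and 10.38 TPM and Mcm3 had 5.89, 7.05 and 8.38 TPM. Mcm4 had 3.56, 3.62 and 3.74 TPM, Mcm5 3.26, 3.36 and 3.41 TPM, and Mcm2 2.52, 2.98 and 2.94 TPM. In TPM, Mcm6, Mcm4 and Mcm5 had the lowest coefficients of variation of the replication genes, 1.79, 2.52 and 2.28%. The order depends on the scale. On the scaled counts described further on, Mcm7 had the smallest log2 range, 0.070, against 0.158, 0.203 and 0.220 for Mcm6, Mcm4 and Mcm5. The ranges of Mcm6, Mcm3 and Mcm4 did not overlap with one another, and those of Mcm4 and Mcm5 were separate by a narrow gap.

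Cdt1, which loads the helicase at origins, had 5.06, 4.15 and 4.60 TPM. It shares its locus with Gm20388 on the same strand, which had 9.64 TPM. The deposited counts of Cdt1 were nevertheless whole, 630, 985 and 798, with a posterior SD of 0. How reads of the shared locus were divided was not tested. Ribonucleotide reductase makes deoxynucleotides from a large subunit, Rrm1, and a small subunit, Rrm2. Rrm1 had 3.59, 4.91 and 4.31 TPM and Rrm2 1.42, 1.09 and 0.860 TPM, a log2 ratio of 1.95 ± 0.53 in favour of Rrm1. Tyms, thymidylate synthase, had 1.46, 1.62 and 1.47 TPM, and Tk1, the thymidine kinase of S phase and the lowest of the role, had 0.980, 0.960 and 0.600 TPM. Rrm2 and Tk1, which are known for rising sharply in S phase, are the members of this role that missed the detection rule.

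Among the G1/S genes, Cdk4, Cdk6, Ccnd1, Rb1 and Ccnd3 averaged above 10 TPM, and the E-type cyclins averaged below 1 TPM. Cdk4, a kinase partner of cyclin D, had 17.9, 20.7 and 17.9 TPM, and its relative Cdk6 had 15.2, 15.2 and 9.29 TPM. Cdk4 overlaps Tspan31 on the opposite strand (34.4 TPM), with strand use in counting not given in the sources used here. Of the D-type cyclins, Ccnd1 (chromosome 7, 144929931 to 144939925, minus strand) had 15.0, 12.7 and 10.1 TPM, Ccnd3 11.6, 9.31 and 11.1 TPM, and Ccnd2 7.19, 5.03 and 3.35 TPM. Ccnd1 lay above Ccnd2 in every library (log2 ratio 1.33 ± 0.26). Ccnd1 and Ccnd3 changed places between libraries, with a log2 ratio of 0.22 ± 0.32 that was above 0 in 2 of 3. Cdk2, the partner of cyclin E, had 4.42 ± 0.452 TPM, 4.27-fold below Cdk4. Ccne1 and Ccne2 had 0.853 ± 0.240 and 0.527 ± 0.108 TPM, and Ccne1 reached 1 TPM in replicate 1 alone.

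RNAs of Rb1 and Rbl1, genes of pocket proteins that restrain E2F factors, were detected along with that of E2f1. Rb1 had 12.2, 11.2 and 12.8 TPM, and its relative Rbl1, which encodes p107, had 10.8, 6.49 and 7.52 TPM. The activator E2f1 had 4.38, 5.12 and 4.82 TPM, whereas E2f2 had 0.420, 0.25 and 0.190 TPM, a log2 ratio of 4.14 ± 0.67. Myc, a growth-promoting transcription factor and immediate early gene, had 8.69, 7.77 and 5.58 TPM. Rb1 exceeded Rbl1 and E2f1 in all libraries, and Myc exceeded E2f1.

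The 3 detected mitosis genes were Mki67, Cdk1 and Top2a. Mki67 (chromosome 7, 135689784 to 135716361, minus strand), which encodes the proliferation marker Ki-67 that coats mitotic chromosomes, had 22.5, 17.4 and 12.0 TPM. Its transcript is long, with a mean effective length of 9549 nt, so it drew 13434, 19660 and 10163 counts, more than Pcna (6134, 9543 and 6637 counts). Per length Pcna was 3.92-fold above Mki67, and by counts the order turned round. Cdk1 (chromosome 10, 69335146 to 69352938, minus strand), the kinase that drives entry into mitosis, had 5.18, 5.61 and 4.48 TPM. Top2a, the topoisomerase that untangles sister chromatids, had 4.64, 2.97 and 2.74 TPM. These levels are 4.99-fold apart between Mki67 and Top2a, and the libraries of the 2 genes do not overlap.

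The partners of CDK1 and the regulators of exit from mitosis were much lower. Ccnb1, cyclin B1, had 0.840, 0.780 and 0.530 TPM, 7.21-fold below Cdk1. On coding transcripts alone Cdk1 and Ccnb1 averaged 2.98 and 0.710 TPM, and by counts their log2 ratio was 1.28, against 2.85 by TPM. Ccna2, cyclin A2, had 0.830, 0.590 and 0.40 TPM. Ccnb2, cyclin B2, had 0.50, 0.150 and 0.0800 TPM, which rest on only 40, 23 and 9 counts. Cdc20, an activator of the anaphase-promoting complex, had 0.30, 0.210 and 0.120 TPM, and Plk1, a kinase of spindle assembly, had 0.25, 0.220 and 0.110 TPM. The ranges of Ccnb2, Cdc20 and Plk1 overlap one another and lie below every library of Cdk1. Aurkb, the kinase of the chromosomal passenger complex, and its partner Birc5, survivin, reached 1 TPM in replicate 1 alone, at 1.26 and 1.18 TPM. Aurka, a kinase of centrosomes, was steady at 0.850 ± 0.0300 TPM, and Bub1, a kinase of the spindle checkpoint, had 0.390 ± 0.0985 TPM. Ccna2 overlaps Exosc9 (10.3 TPM) and Cdc20 overlaps Elovl1 (35.1 TPM), each on the opposite strand.

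The promoters of the mitosis and replication genes differ in letters that the choice of members did not use. Promoters of G2 and mitosis genes are known to hold the CHR element, bound by the DREAM and MuvB complexes, often near CCAAT boxes bound by NF-Y, and promoters of replication genes are known for E2F sites. RefSeq promoters (build GRCm38.p6, 250 bases before to 50 after each start) were searched on both strands for TTTGAA as CHR, for CCAAT, and for TTTCCCGC, TTTGGCGC or TTTCGCGC as E2F. The E2F letters can overlap their own reverse complements, and the CHR and CCAAT letters share no base with each other's matches in the stretches shown. Of the 50 genes 42 matched, with 47 promoters. TTTGAA was in 7 of 10 mitosis promoters, 1 of 12 replication promoters, 1 of 10 G1/S promoters and 0 of 15 arrest promoters, against 17.9% of all 32851 promoters. E2F letters were in 1 of 10 mitosis, 5 of 12 replication, 3 of 10 G1/S and 0 of 15 arrest promoters, against 1.84% of all. CCAAT was in 9 of 10 mitosis, 9 of 12 replication, 4 of 10 G1/S and 10 of 15 arrest promoters, against 37.4% of all.

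Stretches upstream of 3 mitosis genes and 2 replication genes show these patterns, and the parts that GENCODE M21 annotates as exon were left out. They read 5′ to 3′ on the gene's own strand, with each motif match in capitals: TTTGAA for CHR, CCAAT or its complement ATTGG, and the E2F letters or their complements. The positions in build GRCm38.p6 are chr9:70421555-70421804 (minus strand) for Ccnb2, chr4:118437353-118437593 (minus) for Cdc20, chr10:69352939-69353162 (minus) for Cdk1, chr8:75109259-75109508 (plus) for Mcm5 and chr1:128359706-128359955 (minus) for Mcm6.
Ccnb2: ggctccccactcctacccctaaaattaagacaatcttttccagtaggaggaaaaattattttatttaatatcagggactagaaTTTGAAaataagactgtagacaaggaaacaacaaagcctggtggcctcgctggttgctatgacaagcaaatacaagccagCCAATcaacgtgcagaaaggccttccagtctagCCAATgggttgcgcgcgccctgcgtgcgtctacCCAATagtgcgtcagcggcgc
Cdc20: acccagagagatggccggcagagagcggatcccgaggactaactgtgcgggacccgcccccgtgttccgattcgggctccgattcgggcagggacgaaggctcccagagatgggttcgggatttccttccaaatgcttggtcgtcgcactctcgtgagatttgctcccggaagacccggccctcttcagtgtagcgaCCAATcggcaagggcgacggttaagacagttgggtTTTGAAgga
Cdk1: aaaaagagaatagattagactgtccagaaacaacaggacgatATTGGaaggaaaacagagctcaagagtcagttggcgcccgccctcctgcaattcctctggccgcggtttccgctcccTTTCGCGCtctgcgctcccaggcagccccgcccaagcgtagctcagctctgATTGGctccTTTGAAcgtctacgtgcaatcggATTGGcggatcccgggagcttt
Mcm5: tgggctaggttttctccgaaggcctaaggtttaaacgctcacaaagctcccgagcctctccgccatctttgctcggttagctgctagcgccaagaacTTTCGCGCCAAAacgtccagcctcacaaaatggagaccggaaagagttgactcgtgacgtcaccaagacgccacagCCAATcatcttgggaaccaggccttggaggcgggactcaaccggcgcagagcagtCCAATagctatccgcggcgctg
Mcm6: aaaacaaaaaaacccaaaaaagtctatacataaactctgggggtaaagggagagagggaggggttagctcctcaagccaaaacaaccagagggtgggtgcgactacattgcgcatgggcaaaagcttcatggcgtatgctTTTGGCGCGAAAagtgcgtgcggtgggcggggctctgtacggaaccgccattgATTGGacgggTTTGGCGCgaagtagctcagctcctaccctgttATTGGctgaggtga
Cdk1 is the mitosis gene whose promoter holds all 3 kinds of match, while Ccnb2 and Cdc20 hold CHR and CCAAT letters without E2F letters. The same holds for Mki67 and Top2a, the other detected mitosis genes. Whether the letters go with the level in TPM was not tested. In Mcm5 and Mcm6, 2 E2F matches on opposite strands overlap in 1 run of capitals. A match describes these letters only, and no binding was measured.

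The arrest genes had the highest median of the 4 roles and the 4 members most abundant by mean TPM, Cdkn1a, Gadd45b, Plk2 and Mdm2. Pcna came next by mean TPM, and Plk3, Cdkn2c, Cdkn1b and Cdkn2d stayed below 5 TPM on average. In replicate 3, however, Pcna (58.8 TPM) exceeded Plk2 (57.2 TPM) and Mdm2 (49.3 TPM). On coding transcripts alone Pcna averaged 65.7 TPM and Mdm2 51.45 TPM. Cdkn1a (chromosome 17, 29090976 to 29100727, plus strand), which encodes the kinase inhibitor p21, had 226, 272 and 151 TPM. Its relative Cdkn1b, which encodes p27, had 4.18, 4.18 and 3.08 TPM, 55.7-fold less (log2 ratio 5.80 ± 0.21). The INK4 inhibitors, which bind CDK4 and CDK6, were low too, with Cdkn2d (p19) at 5.80, 3.58 and 3.57 TPM and Cdkn2c (p18) at 3.24, 2.17 and 2.41 TPM. Cdkn1a thus exceeded each of the other inhibitors in every library, and exceeded Ccnd1 17.0-fold.

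Genes of the p53 pathway spread widely in level. Trp53, which encodes p53, had 14.1, 14.8 and 11.8 TPM, and Mdm2, the ligase that degrades p53 and is itself a p53 target, had 99.0, 65.8 and 49.3 TPM. Mdm2 was above Trp53 by 2.34 ± 0.41 on the log2 scale. Ccng1, cyclin G1, another p53 target, had 38.9, 45.1 and 43.7 TPM. Its coefficient of variation in TPM, 7.69%, was the lowest of the arrest genes. On the scaled counts described further on, Plk3 and Trp53 had smaller log2 ranges, 0.225 and 0.236 against 0.295 for Ccng1. Gadd45b, a stress sensor known as a target of NF-kappaB, had 202, 139 and 123 TPM, and its relative Gadd45a, a p53 target, had 30.4, 26.7 and 14.2 TPM. Of the anti-proliferative genes, Btg1 had 68.5, 51.7 and 32.9 TPM and Btg2 had 18.5, 16.4 and 11.0 TPM. In both of these families the first-named gene was the higher one in all libraries, by 6.70-fold for Gadd45b and 3.27-fold for Btg1.

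Levels of the polo-like kinases differed within the arrest role as well as between roles. Plk2 (chromosome 13, 110395046 to 110400844, plus strand), a stress-induced kinase, had 216, 84.4 and 57.2 TPM, whereas Plk3, a related kinase of the stress response, had 1.53, 1.35 and 1.19 TPM, and the mitotic kinase Plk1 stayed at 0.25 TPM or less. Plk2 exceeded Plk1 by 9.12 ± 0.59 on the log2 scale and Plk3 by 6.23 ± 0.81. In replicate 1 the Plk2 level was more than that of both other libraries together.

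Whether a gene varied between the libraries more than genes of like abundance was tested with edgeR on rounded expected counts, by the residual deviance under the trended dispersion, with Benjamini-Hochberg adjustment over all 12256 genes that passed its filter on low counts. Of the members 49 entered the test, Ccnb2 being too low. Of these, 2 (4.08%) passed an adjusted p of 0.05, against 1.96% of all genes tested, and 8 had an unadjusted p below 0.05, against 6.88% of all. The 2 were Plk2 and Ccnd2. For Plk2 the scaled count departed from its mean by 0.83, -0.50 and -0.96 on the log2 scale in replicates 1, 2 and 3 (edgeR, adjusted p = 2.20e-05). It passed in 7 of 8 alternative settings and had an adjusted p of 1 without replicate 1. Ccnd2 departed by 0.44, -0.04 and -0.59 (edgeR, adjusted p = 0.0446) and passed in 1 of 8 alternatives, where its adjusted p ran between 0.042 and 1. Gadd45a lay just outside with departures of 0.30, 0.18 and -0.66 (edgeR, adjusted p = 0.051). No replication gene and no mitosis gene was called, although Ccna2 and Mki67 ranged by 1.38 and 0.78.

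**Figure D3:**
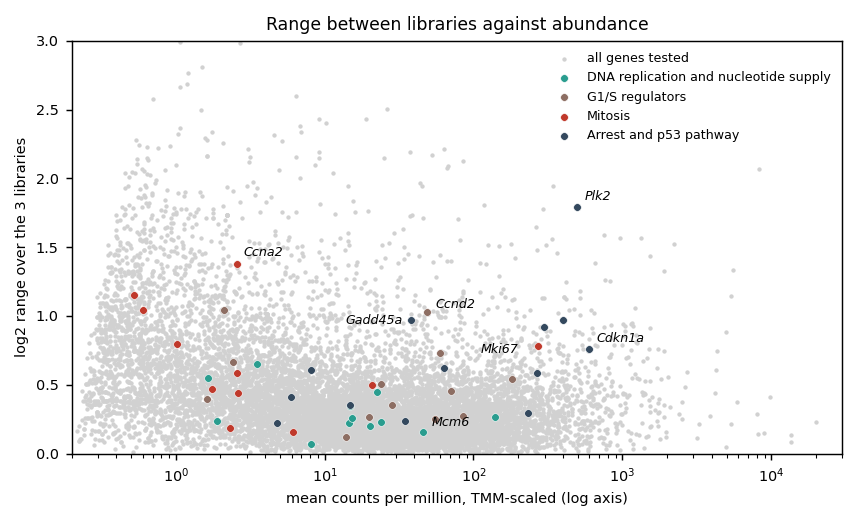
Range between the highest and lowest library on the log2 scale against mean TMM-scaled CPM, the depth-corrected count (log axis), for all genes tested (grey, of which 10 lie outside the axes) and for the 49 members tested, coloured by role. Plk2 has the widest range of the members, 1.79, at high abundance, whereas the replication gene Mcm6 has a range of 0.16.

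Most mitosis genes were highest in the same library. Scaled by TMM, 9 of 11 mitosis genes tested were highest in replicate 1, against 35.1% of all genes, and 8 of 11 were lowest in replicate 3, against 31.7% of all. Their median departures were 0.29, -0.01 and -0.34 in replicates 1, 2 and 3, against -0.01, 0.00 and 0.00 for all genes tested. Of the other mitosis genes, 40 of 51 tested were highest in replicate 1 and 31 of 51 were lowest in replicate 3. Of the G1/S members 8 of 13 were highest in replicate 1 and 7 of 13 lowest in replicate 3. For other cyclins and cyclin-dependent kinases these counts were 14 of 26 and 12 of 26. Over all 49 members tested, 31 were highest in replicate 1 and 29 lowest in replicate 3. Of the arrest members 9 of 13 were highest in replicate 1 and 10 of 13 lowest in replicate 3. The other lists of that pathway did not share this lean, since 15 of 36 other arrest genes and 8 of 23 other p53 targets were highest in replicate 1, and 11 of 36 and 9 of 23 were lowest in replicate 3. Trp53 and Ccng1 stayed within 0.24 and 0.30 across the libraries. Replication genes were divided, with 7 of 12 highest in replicate 3 and 5 of 12 in replicate 1. The 5 were Pcna, Cdt1, Tyms, Rrm2 and Tk1. The 6 Mcm genes, singled out after their values were seen, were all highest in replicate 3, against 32.8% of all genes, and 4 of the 6 were lowest in replicate 1, against 38.3% of all, but the departures were small, at most 0.22, and none was called. Over the other replication genes the highest library was replicate 3 in 16 of 45 and replicate 1 in 15 of 45. Genes of 1 pathway are not independent of each other, and these counts come from 3 libraries.

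**Figure D4:**
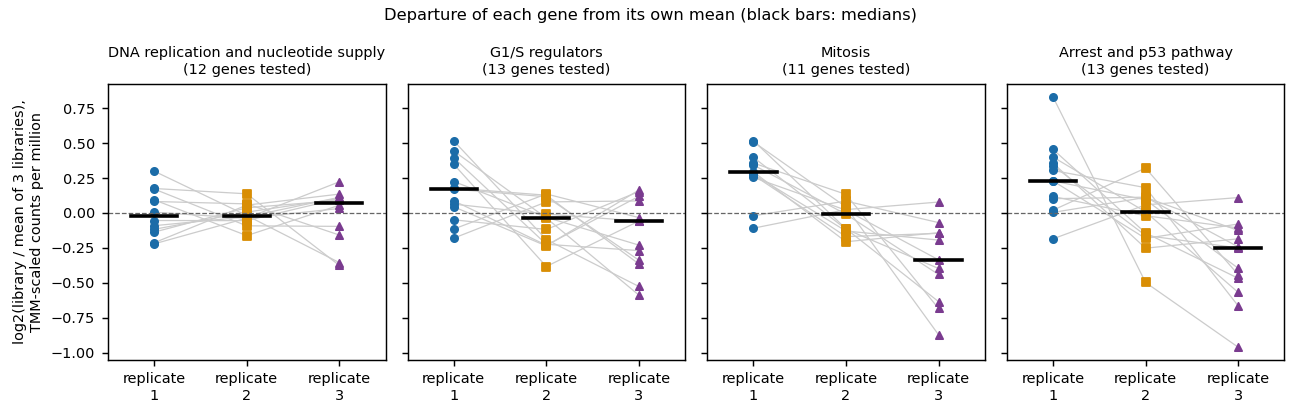
Log2 departure of each gene tested from its own mean over the 3 libraries, on TMM-scaled CPM, by role; grey lines join the values of 1 gene and black bars are medians. The mitosis and arrest medians are 0.29 and 0.23 in replicate 1 and -0.34 and -0.25 in replicate 3, while the replication medians stay between -0.03 and 0.07. The G1/S medians are 0.17, -0.04 and -0.06 in replicates 1, 2 and 3.

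RNAs known to stay in the nucleus were highest in replicate 3, the library in which 29 of the 49 members tested were lowest. Malat1 had 103, 132 and 345 TPM, Neat1 10.1, 10.9 and 23.5 TPM, and Rn7sk, the 7SK RNA, 21186, 37904 and 76327 TPM in replicates 1, 2 and 3. Replicate 3 thus held the most of each of these RNAs. The part of nuclear RNA in the differences between libraries was not tested.

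Most members were carried by protein-coding transcripts, with a median of 0.780% of gene TPM in other transcript types. In 7 of the 50 genes the other types took 20% or more. Among detected members it was 5 of 36 (13.9%), against 16.7% of detected protein-coding genes. The 7 genes were Tyms, Cdk1, Mcm3, Ccne2, Top2a, Mdm2 and Tk1. For Tyms the share was 84.1 ± 6.27% of TPM (SD, n = 3), and 57.1% lay on Tyms-205 alone, a transcript of 618 nt annotated for nonsense-mediated decay. Its coding transcripts came to only 0.240 ± 0.0866 TPM, so Tyms is a detected gene through transcripts that are not annotated as coding. By counts the share outside coding transcripts was lower, 55.9 ± 7.23%, and the coding transcript Tyms-201 held 42.8 ± 7.18%. The gene drew 78, 144 and 86 counts, which limits this split.

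Cdk1 had 41.4 ± 2.28% of its TPM outside coding transcripts, nearly all on Cdk1-204, a retained-intron transcript of 475 nt. That transcript took 40.6 ± 1.03% of TPM but 13.5 ± 1.14% of counts, being short, and the coding transcripts kept 2.98 ± 0.277 TPM. The second transcript table gave 39.3% for it as well. For Top2a the share was 30.0 ± 5.74% of TPM and 4.69 ± 1.18% of counts, and for Ccne2 32.0 ± 14.5% of TPM and 3.60 ± 2.13% of counts. For Mcm3 the tables disagreed, with 38.1 ± 5.17% in the first and 12.7 ± 8.55% in the second. Mdm2 had 28.6 ± 3.66% in the first table and 17.1 ± 3.46% in the second. Its decay transcript Mdm2-209 held 17.1% of TPM in the first table and 1.10% in the second. Both tables named the same leading transcript for 49 of 50 members. The exception was E2f1, whose 2 coding transcripts shared its TPM about evenly in the first table (E2f1-202 at 51.4 ± 6.18%), while the second gave E2f1-201 67.6 ± 9.85%.

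**Figure D5:**
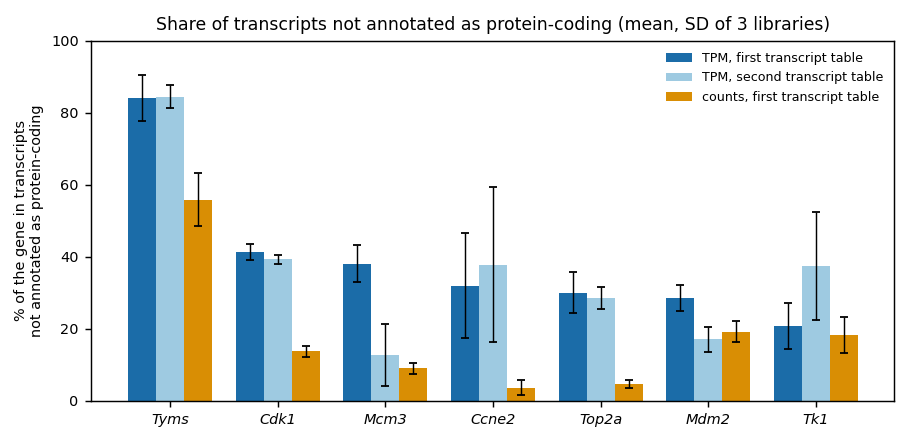
Percent of a gene in transcripts not annotated as protein-coding, as mean and SD over 3 libraries, for the 7 members at 20% or more, by TPM in the first and second transcript tables and by counts in the first. Tyms stands highest at 84.1% by TPM in the first table and 55.9% by counts. For Cdk1, Mcm3, Ccne2 and Top2a the share by counts is also under that by TPM, at 13.7, 9.02, 3.60 and 4.69%.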

How the data were processed

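Total RNA of the cytosolic fraction was measured in 3 libraries of 1 group, each from 1 µg of RNA and sized to 250 to 400 nt, as labelled. The authors deposited a gene table and 2 transcript tables per library on mm10 with GENCODE M21, per the notes deposited with them, with programs and strand handling not given in the sources used here. Expected counts (first tables) and estimated counts (second transcript table) are the authors' deposited values without normalization. TPM were deposited by the authors corrected for effective length. The percent of gene TPM that each transcript takes was deposited in the first transcript table, per the file headers. The posterior SD of each count was deposited as well and was at most 2.73% for a member, while 38 members had whole counts in all libraries. Of the members, 21 overlap another annotated gene, 19 of them on the opposite strand and 5 on the same strand.

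Members, gene lists and pairs were chosen with earlier results of these data known. All 50 members could be named, with the 3 highest and 2 lowest genes of each other list, the genes of 23 pairs, and transcripts where a share reached 20% or the tables differed. List medians used a pseudocount of 1 TPM, and ratios used none. Sequences of phiX (0.0959 to 0.227% of counts), spike-ins and tRNA features were left out. The variability test used edgeR 4.0.16 under R 4.3.3 with TMM, filterByExpr and estimateDisp with an intercept, and residual deviance was set against chi-square with 2 degrees of freedom. The test was tried on simulated data. DESeq2 1.42.0 served as an alternative. In all, 80 alternatives were planned, and 8, for protein-coding transcripts alone, were added after seeing the data.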

Additional observations from a re-analysis of the deposited data

How the results depend on the processing

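The arrest minus replication difference was within 1 SD of its reported value in all 10 alternatives. The replication minus mitosis difference (1.38) became 2.14 with a pseudocount of 0.1 TPM, 1.02 in the second transcript table, 1.90 after rescaling over nuclear protein-coding genes, 2.34 as CPM, 1.18 with means over members and -0.33 with detected members alone. The arrest minus mitosis difference (3.78) became 4.80, 3.26, 4.49 and 4.31 under the first 4 of these settings and 1.96 with detected members alone. A threshold of 5 TPM left 20 members, 3 replication genes and 1 mitosis gene detected, 0.5 TPM gave 7 mitosis genes, and rescaling gave 9. Variable members numbered 3 with DESeq2 size factors in edgeR, where Gadd45a passed too (adjusted p = 0.0487), 1 with DESeq2 size factors and its dispersion trend, with no filter on low counts, with a common dispersion and with counts of the second table, and 0 to 1 without 1 replicate at a time. Calculated from counts without length, 4 log2 ratios changed sign: Ccnd3 over Ccnd2 to -0.72, Cdk4 over Cdk6 to -1.70, Mcm2 over Mcm5 to 0.017 and Pcna over Mki67 to -0.93. This follows from the unequal lengths. The cause of the other changes was not tested, except that a threshold or scale moves counts by construction. On the second table's scale all detected genes shifted by -0.84 and the members by -0.87 (median log2), and rescaling over protein-coding genes shifted them by 1.73. Using coding transcripts alone moved no group count or difference past these limits. Low counts limit Ccnb2, Cdc20 and Plk1, and the single group has no untreated cells. No paired analysis was possible because there is 1 group.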
